A study of Mus musculus with 14 samples.

Results

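The genes described here are the nuclear genes for the subunits of the 5 oxidative phosphorylation complexes, read in mouse brainstem RNA. They were taken by symbol from the deposited gene table: symbols that begin with Nduf followed by a, b, c, s or v and a digit, Uqcr, Cox4 to Cox8, Sdha to Sdhd, Atp5, and Ndufab1. The patterns matched 107 entries, of which 14 pseudogene symbols ending in -ps and Ndufa4l2 were left out. This left 92 of the 55421 gene entries, under 91 symbols because Atp5po has 2 entries. Ndufa11b, Ndufb4c, Ndufs6b and Cox6c2, which GENCODE lists as processed pseudogenes, lack the -ps ending and stayed among the 92. By symbol stem, 42 belonged to complex I (Nduf), 4 to complex II (Sdh), 8 to complex III (Uqcr), 19 to complex IV (Cox) and 19 to complex V (Atp5). Cox8c, Ndufb11b and the second Atp5po entry had 0 counts in all 14 libraries, and Ndufa11b, with at most 0.214 CPM (counts per 1000000 counts of the library), did not pass the filter on low counts. The other 88 were tested in every comparison.

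Oxidative phosphorylation runs on the inner mitochondrial membrane. Complexes I and II take electrons from NADH and succinate and pass them to ubiquinone, complex III passes them to cytochrome c, and complex IV passes them to oxygen. Complexes I, III and IV pump protons, and complex V, the ATP synthase, makes ATP from the returning protons. Most subunits are encoded in the nucleus and translated on cytosolic ribosomes, and a core set is encoded in mitochondrial DNA. Locus coeruleus neurons, which fire steadily and send noradrenaline to much of the brain, have a high energy demand.

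The mice, of C57Bl/6 background, carried the genotype TH-Cre;Slc6a2-eGFP/Rpl10a, so Cre was driven by the tyrosine hydroxylase promoter and a tagged ribosomal protein, Rpl10a, by the control region of Slc6a2, the noradrenaline transporter gene. At 2 to 3 months of age 4 animals (B and L male, C and M female) had P364S mutant human tau infused into the locus coeruleus, and 3 controls (I male, H and K female) had the fluorescent protein EYFP infused there. From the brainstem of each came a homogenate (pre-IP) and a precipitate of the tagged ribosomes (IP), so the groups were tau IP and tau pre-IP (n = 4 each) and EYFP IP and EYFP pre-IP (n = 3 each). All groups share both transgenes and the infusion. How long after infusion the tissue was taken is not given in the sources used here.

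Libraries held 41843489 to 65664551 counts, and the human tau construct read 67.8 to 839.6 CPM in the tau libraries and 0.0401 to 7.44 CPM in the EYFP libraries. Among the EYFP libraries, those of animal K read 6.55 CPM (IP) and 7.44 CPM (pre-IP), and those of H and I at most 0.373 CPM. RNA integrity was between 7.7 and 9 in 13 libraries and 4.2 in EYFP IP I. RNA of the IPs was at 0.1 to 0.8 ng per µl in tau animals and 0.7 to 2.8 ng per µl in EYFP animals. Of 12 noradrenergic marker genes, 12 were called higher in IP than in pre-IP, against 16.3% of all genes tested. The mean log2 IP over pre-IP of the list was 4.47, 3.59, 3.51 and 1.71 in tau animals B, C, L and M. It was 0.68, 0.89 and 0.68 in EYFP animals H, I and K. The summed level of these markers was 1065 to 7211 CPM in tau IP and 564 to 636 CPM in EYFP IP. Markers of neurons in general (11 of 13), astrocytes (8 of 8), oligodendrocytes (7 of 8), microglia (8 of 8) and endothelium (8 of 8) had fold changes below 0 in tau IP against EYFP IP. Over all 19472 genes tested, 11014 were below 0 in that comparison. Of the marker genes, 0 were at 0 in every library of a group. The part of these differences in marker levels in the results on the subunit genes was not tested. In bulk libraries, fewer cells of a type and less RNA per cell cannot be told apart.

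The promoters of 5 members are shown because they hold the sequence elements searched for, or lack them, at genes on which the results below turn. Each is the RefSeq window (GRCm38.p6) of 250 bases before to 50 bases after the start, written 5′ to 3′ on the gene's strand. Capitals mark the cores of sites for NRF1 (GCGCATGC), ETS factors such as GABP (CCGGAAG) and YY1 (AAGATGGCG), searched on both strands along with TATAAA. NRF1, GABP and YY1 are known regulators of nuclear genes for mitochondrial proteins. The windows lie at chr10:80406772-80407071 (minus strand, Uqcr11), chr5:108434350-108434649 (minus, Atp5me), chr3:51408906-51409205 (minus, Ndufc1), chr10:128083057-128083356 (plus, Atp5f1b) and chr13:74350191-74350490 (minus, Sdha).
Uqcr11: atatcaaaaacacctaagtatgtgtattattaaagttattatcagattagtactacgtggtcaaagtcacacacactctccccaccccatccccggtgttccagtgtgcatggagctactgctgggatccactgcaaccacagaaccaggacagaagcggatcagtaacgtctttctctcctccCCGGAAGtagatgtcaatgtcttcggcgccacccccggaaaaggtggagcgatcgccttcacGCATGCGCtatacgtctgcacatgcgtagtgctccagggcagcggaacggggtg
Atp5me: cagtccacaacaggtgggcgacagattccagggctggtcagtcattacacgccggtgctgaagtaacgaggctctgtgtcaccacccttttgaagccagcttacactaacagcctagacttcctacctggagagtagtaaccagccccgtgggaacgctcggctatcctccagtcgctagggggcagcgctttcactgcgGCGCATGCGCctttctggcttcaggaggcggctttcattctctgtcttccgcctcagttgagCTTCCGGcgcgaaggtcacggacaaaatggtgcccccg
Ndufc1: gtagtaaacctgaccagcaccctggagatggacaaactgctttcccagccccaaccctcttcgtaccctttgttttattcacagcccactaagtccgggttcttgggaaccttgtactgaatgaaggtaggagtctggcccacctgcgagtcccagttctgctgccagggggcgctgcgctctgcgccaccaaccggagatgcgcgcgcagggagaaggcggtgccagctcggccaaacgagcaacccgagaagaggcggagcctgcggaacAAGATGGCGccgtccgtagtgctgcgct
Atp5f1b: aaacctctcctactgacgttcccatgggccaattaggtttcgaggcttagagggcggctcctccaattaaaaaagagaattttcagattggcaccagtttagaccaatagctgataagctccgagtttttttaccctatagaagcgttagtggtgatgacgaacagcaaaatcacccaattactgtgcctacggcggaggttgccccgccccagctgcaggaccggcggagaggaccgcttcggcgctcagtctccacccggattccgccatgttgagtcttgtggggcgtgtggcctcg
Sdha: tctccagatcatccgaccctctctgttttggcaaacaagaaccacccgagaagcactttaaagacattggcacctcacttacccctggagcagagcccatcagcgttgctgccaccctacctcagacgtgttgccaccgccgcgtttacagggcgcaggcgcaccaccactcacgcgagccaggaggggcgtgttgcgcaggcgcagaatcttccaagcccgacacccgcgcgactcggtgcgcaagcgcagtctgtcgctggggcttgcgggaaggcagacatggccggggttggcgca
Uqcr11 has the ETS core from base 66 before the start and the NRF1 core, on the opposite strand, from base 4 before it. Atp5me has a palindromic NRF1 element, 2 overlapping matches on the 2 strands from bases 50 and 48 before the start, and an ETS core on the opposite strand from base 13 after it. Ndufc1 has the YY1 core from base 23 after the start. The 4 elements were not found in the windows of Atp5f1b and Sdha, genes of large subunits. The 5 windows do not stand for a rule by subunit size: Uqcrc1, of a large core protein, holds the NRF1 core and Sdhb the NRF1 and ETS cores, while Ndufa1, Ndufa5 and Cox7a2, of small subunits, hold none of the 4.

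Of the 89 members with counts, 69 matched a RefSeq promoter, 13 of them through an older symbol. The NRF1 core was in 10 of the 69 (14.5%) against 3.05% of 27025 genes with a window, the ETS core in 16 (23.2%) against 9.93%, and the YY1 core in 7 (10.1%) against 1.64%. TATAAA was in 7 members (10.1%) against 15.7% of all genes, and CCAAT, read on both strands, in 29 (42.0%) against 41.1%. By complex, the YY1 core was in 5 of 34 complex I genes and 2 of 14 complex V genes and in 0 of 21 others. A match of letters is a description and not a bound site, and the files hold no binding data.

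Together the 92 genes took 4.74 to 6.15% of the counts in tau IP, 4.20 to 4.42% in EYFP IP, 3.54 to 4.20% in tau pre-IP and 3.11 to 3.80% in EYFP pre-IP. The summed CPM of complex I was 21954, 18629, 16663 and 17483 in tau IP B, C, L and M, and 14054, 14556 and 14849 in EYFP IP H, I and K. The sums of complexes I, III and IV in the 4 tau IPs were all above those in the 3 EYFP IPs. For complex V the ranges overlapped, at 13010.3 to 16657 against 12304 to 13245 CPM. The sum of complex II moved little between groups. It was 2159 ± 55 CPM (SD, n = 4) in tau IP, 2201 ± 112 (n = 3) in EYFP IP, 2162 ± 119 (n = 4) in tau pre-IP and 2082 ± 141 (n = 3) in EYFP pre-IP. The ratio of mean sums, tau over EYFP IP, was 1.29 for complex I, 0.981 for II, 1.23 for III, 1.33 for IV and 1.14 for V. IP over pre-IP, the same ratio was 1.35, 1.03, 1.39, 1.36 and 1.29. All CPM values use library totals, while the log2 fold changes below use TMM scaling, so the readings can differ. For tau IP against EYFP IP the median log2 fold change of members was 0.38 by library totals and 0.50 by TMM. That of complex II was 0.20 by TMM.

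**Figure D1:**
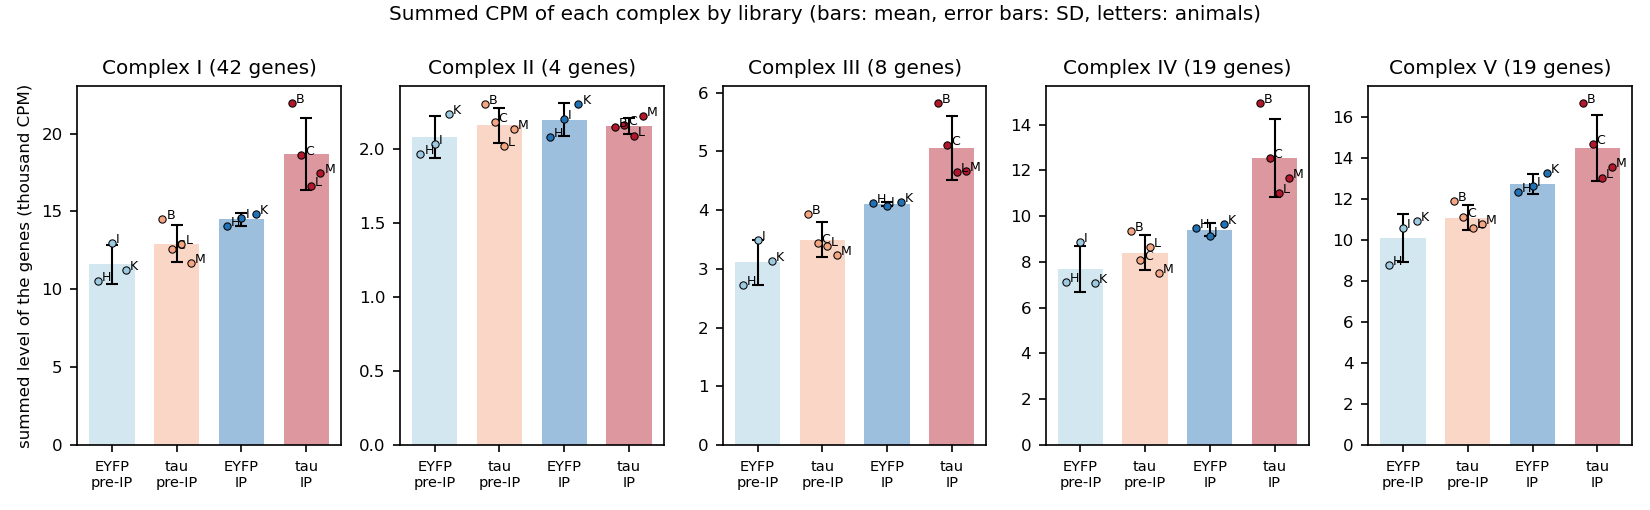
Summed CPM of the member genes of each complex (one panel per complex, each axis from 0) in every library, by group; points are libraries marked with the animal letter, bars are group means and error bars are SDs. The complex II sums lie between 1969 and 2310 CPM in all 14 libraries, while tau IP is the highest group for complexes I, III, IV and V.

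Within the tau IP group the spread was wide and ran along animals. Library B was the highest of the 4 for 64 of the 88 tested members, and L the lowest for 50. In tau pre-IP, B was again the highest for 73 of 88, and M the lowest for 63. Animal B therefore read high in both fractions, and it also had the most tau construct in its IP and the largest noradrenergic enrichment. Its IP had the lowest RNA concentration, 0.1 ng per µl. The other tau animals did not keep this order. M had the smallest noradrenergic enrichment (1.71), but its members took 4.96% of the IP counts, against 4.74% in L. In tau pre-IP the construct read 128 CPM in B and 183 CPM in M. Whether these quantities go together was not tested.

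Tau IP against EYFP IP asks whether the ribosome-bound RNA of these genes differed with mutant tau. By edgeR's quasi-likelihood test with Benjamini-Hochberg adjustment, 0 of the 88 members changed at adjusted p under 0.05, as 0 of all 19472 genes tested did (0%), and the lowest adjusted p of a member was 0.318. At unadjusted p under 0.05, 55 members were on the higher side, against 7.93% of all genes tested, and 0 on the lower side, against 4.06%. Fold changes were above 0 for 75 of the 88, with a median of 0.50 on the log2 scale, against 43.4% of all genes and a median of -0.08. In 53 members every tau IP library was above every EYFP IP library, against 6.36% of all genes. Without animal H the count at unadjusted p fell to 35, against 4.92% of all genes. The Wald test of DESeq2 called 8 members higher at adjusted p under 0.05 (Atp5if1, Ndufa1, Ndufa2, Ndufa7, Ndufs6, Uqcr10, Uqcr11 and Uqcrq), against 1.6% of all genes, and the lowest adjusted p of a member ran from 0.0306 to 0.636 over 17 other settings. The numbers in the library names fall into a lower (up to 11) and an upper range (from 17), each with both treatments. Within the lower range, 2 tau IPs against 2 EYFP IPs, the median difference of members in log2 CPM was 0.54, with 72 of 88 above 0, against -0.34 over all genes. Within the upper range, 2 tau IPs against 1 EYFP IP, it was 0.19, with 65 of 88 above 0, against -0.05, and these values have no test.

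**Figure D2:**
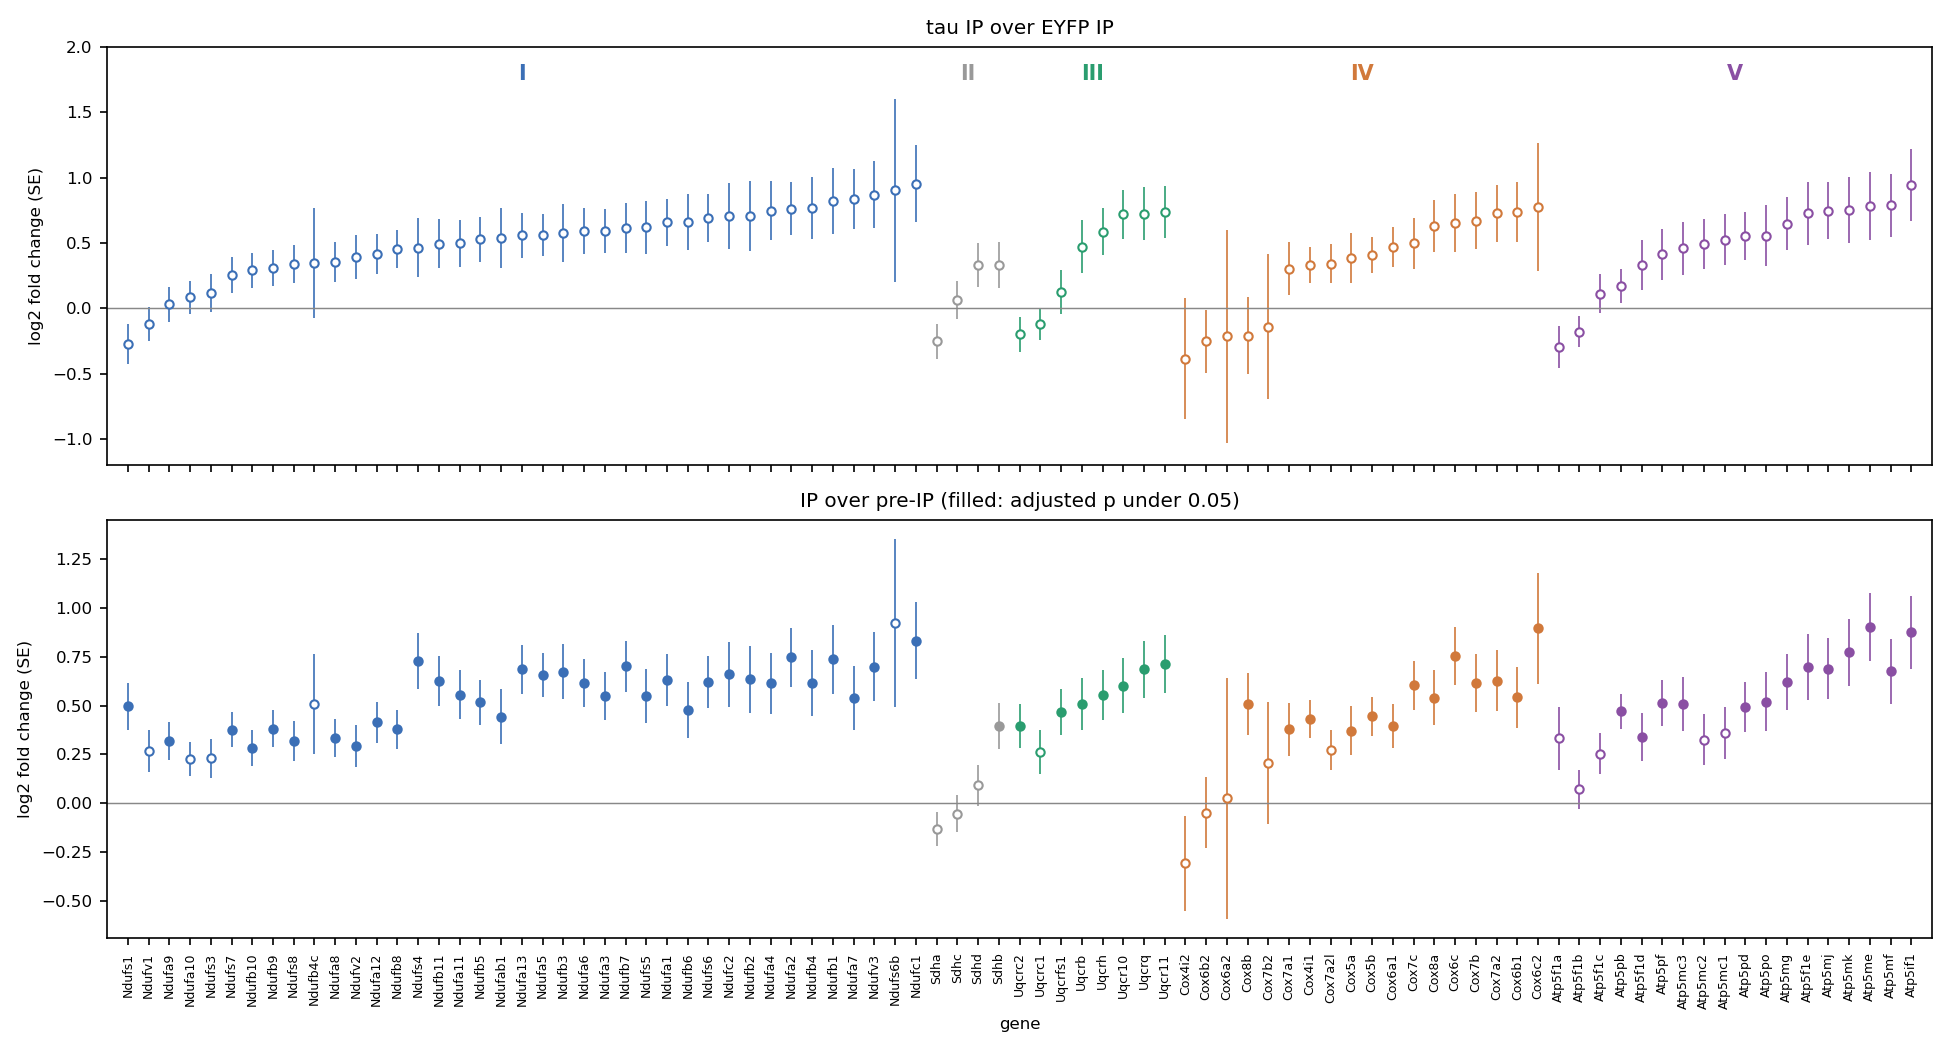
Log2 fold change of 87 of the 88 tested members, grouped by complex, for tau IP over EYFP IP (top) and IP over pre-IP (bottom); points are edgeR estimates, bars are standard errors and filled points passed adjusted p under 0.05. Most members of complexes I, III, IV and V lie above 0 in both panels, and in the lower panel Sdhb is the one filled point of complex II.

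Complex I had the most members, with a median log2 fold change of 0.55. Of its 40 tested genes, 28 were higher in tau IP at unadjusted p under 0.05, against 7.93% of all genes tested. Ndufs6, an accessory subunit of the NADH-oxidizing arm, read 534, 483, 403 and 386 CPM in tau IP (animals B, C, L and M) and 296, 306 and 308 CPM in EYFP IP (H, I and K). Ndufa2, another accessory subunit of that arm, read 1038, 822, 722 and 653 CPM in tau IP and 529, 516 and 511 CPM in EYFP IP. Ndufa1, a small membrane subunit needed for assembly, read 654, 548, 518 and 488 CPM in tau IP and 341, 397 and 399.7 CPM in EYFP IP. The groups did not overlap for these 3 genes, and the log2 fold changes were 0.69 ± 0.18 (SE), 0.76 ± 0.20 and 0.66 ± 0.18 with unadjusted p = 0.0035, 0.00409 and 0.00447, each at an adjusted p of 0.318. Ndufc1, the small membrane subunit whose promoter is shown above, read 688, 449, 368 and 316 CPM in tau IP and 253, 227 and 290.3 CPM in EYFP IP. Its log2 fold change of 0.96 ± 0.30 was the largest of all 88 members, and library B was its highest. Ndufa4 is counted here by its symbol, although its protein is now placed in complex IV, and it read 1919, 1376, 1226 and 1328 CPM in tau IP and 795, 949 and 1094 CPM in EYFP IP (0.75 ± 0.23).

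The large catalytic subunits Ndufs1 and Ndufv1 of complex I had fold changes below 0. Among other Ndufs and Ndufv genes, Ndufs3 (0.12 ± 0.15), Ndufs7 (0.26 ± 0.14), Ndufs8 (0.34 ± 0.14) and Ndufv2 (0.39 ± 0.17) were above 0. Ndufs1, which carries most of the iron-sulfur centres at the entry of electrons, read 119, 125, 134 and 134 CPM in tau IP and 136, 189.9 and 172 CPM in EYFP IP. The groups did not overlap, with tau IP lower. Ndufv1, the NADH-binding flavoprotein, read 396, 510.4, 437 and 480.0 CPM in tau IP and 538, 564 and 499 CPM in EYFP IP, with overlap. Log2 fold changes were -0.27 ± 0.15 and -0.12 ± 0.13, with adjusted p = 0.509 and 0.736 by edgeR. Of the 40 tested members of complex I, 37 had fold changes above 0.

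None of the 4 genes of complex II, succinate dehydrogenase, was past an unadjusted p of 0.05 by edgeR, and the lowest adjusted p among them was 0.471. Sdha, the flavoprotein that oxidizes succinate, read 568, 723, 808 and 783 CPM in tau IP and 866, 968 and 926 CPM in EYFP IP, with every tau IP library below every EYFP IP library. Its log2 fold change was -0.25 ± 0.14. Sdhb, the iron-sulfur subunit, read 938, 789, 673 and 755 CPM in tau IP and 677, 653 and 707 CPM in EYFP IP, and the ranges overlapped at animal L (0.33 ± 0.17). The membrane anchors Sdhc and Sdhd had log2 fold changes of 0.06 ± 0.14 and 0.33 ± 0.17 with overlapping groups. Sdhc fell below 0 without animal H (-0.03) and when libraries were scaled by their totals (-0.04).

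Complex III had 5 of 8 genes higher at unadjusted p under 0.05, against 7.93% of all genes tested. Uqcr11, a small peripheral subunit with the NRF1 and ETS cores shown above, read 1166, 994, 856 and 758 CPM in tau IP and 691, 570.2 and 585 CPM in EYFP IP. Uqcr10, another small subunit, read 1011, 817, 731 and 714 CPM in tau IP and 559, 509.5 and 549 CPM in EYFP IP. Neither gene's groups overlapped, and the log2 fold changes were 0.74 ± 0.20 and 0.72 ± 0.19, with unadjusted p = 0.00436 and 0.00344. The genes of the large core proteins had fold changes below 0: Uqcrc2 read 195, 203, 238 and 242 CPM in tau IP and 253, 279 and 280.0 CPM in EYFP IP and Uqcrc1 read 823, 858, 923 and 933 CPM in tau IP and 1063, 1049 and 999 CPM in EYFP IP. Both were lower in all 4 tau IPs than in all 3 EYFP IPs, with log2 fold changes of -0.20 ± 0.14 and -0.12 ± 0.12 and adjusted p = 0.584 and 0.71 by edgeR. Uqcrfs1, the Rieske iron-sulfur protein that donates electrons towards cytochrome c, overlapped between groups (0.13 ± 0.17).

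In complex IV, cytochrome c oxidase, 10 of 18 genes were higher at unadjusted p under 0.05, against 7.93% of all genes tested. Cox7a2, a small membrane subunit, read 1321, 986, 827 and 866 CPM in tau IP and 615, 642 and 713 CPM in EYFP IP. Cox6b1, which faces the intermembrane space, read 1846, 1359, 1160.2 and 1087 CPM in tau IP and 849.7, 844 and 982 CPM in EYFP IP. Cox8a, another small membrane subunit, read 2329, 1797, 1598 and 1498 CPM in tau IP and 1348, 1192 and 1269.7 CPM in EYFP IP. Each had every tau IP library above every EYFP IP library, and the log2 fold changes were 0.73 ± 0.22, 0.74 ± 0.23 and 0.63 ± 0.20. The 3 genes with the smallest p on the lower side were isoforms of low level, Cox6b2 (-0.25 ± 0.24), Cox4i2 (-0.39 ± 0.46) and Cox8b (-0.21 ± 0.29), and all overlapped between groups. Cox8b read 0.06 without animal K.

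In complex V, 12 of 18 genes were higher at unadjusted p under 0.05, against 7.93% of all genes tested. Atp5if1, the inhibitor that stops the synthase from running backwards, read 943, 596, 526 and 454 CPM in tau IP and 331, 372 and 371 CPM in EYFP IP. Atp5mj, a small membrane subunit, read 818, 634, 540.0 and 519.5 CPM in tau IP and 388, 381 and 453 CPM in EYFP IP. Atp5mf, another one, read 1172, 869, 709 and 666 CPM in tau IP and 564, 487 and 566 CPM in EYFP IP. The groups did not overlap for these 3, with log2 fold changes of 0.95 ± 0.28, 0.75 ± 0.22 and 0.79 ± 0.24. The alpha and beta subunits of the catalytic head had fold changes below 0. Atp5f1c (0.11 ± 0.15), Atp5f1d (0.33 ± 0.19) and Atp5f1e (0.73 ± 0.24) were above 0. Atp5f1b, the beta subunit that carries the catalytic sites, read 2332, 2781, 2923 and 2995 CPM in tau IP and 3573, 3227 and 3252 CPM in EYFP IP, lower in every tau IP. Atp5f1a, the alpha subunit, read 949, 1107, 853 and 941 CPM in tau IP and 1065, 1435 and 1315 CPM in EYFP IP, with overlap. Log2 fold changes were -0.18 ± 0.12 and -0.29 ± 0.16, with adjusted p = 0.571 and 0.5 by edgeR. In all, 5 of the 88 members (Ndufs1, Sdha, Uqcrc1, Uqcrc2 and Atp5f1b) were lower in tau IP without overlap, against 9.22% of all genes tested.

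IP against pre-IP, with treatment as an additive term, asks which of these RNAs were relatively more abundant on the tagged ribosomes than in the whole brainstem. Here 68 of the 88 members were higher at adjusted p under 0.05 by edgeR, against 16.3% of all 18792 genes tested, and 0 were lower, against 14.7%. The median log2 fold change was 0.51, against -0.00 over all genes. By complex, 34 of 40 genes of complex I rose, 1 of 4 of complex II, 7 of 8 of complex III, 13 of 18 of complex IV and 13 of 18 of complex V. The 20 that did not pass included Ndufa10, Ndufs3, Ndufv1, Ndufb4c and Ndufs6b of complex I, Sdha, Sdhc and Sdhd, Uqcrc1, Cox4i2, Cox6a2, Cox6b2, Cox7a2l and Cox7b2, and Atp5f1a, Atp5f1b, Atp5f1c, Atp5mc1 and Atp5mc2. With the animal as a block 69 passed, 67 of them shared.

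Among those that rose in complex I, Ndufa5, an accessory subunit of the matrix arm, read 358, 323, 334 and 296 CPM in tau pre-IP and 276, 344 and 266 CPM in EYFP pre-IP, and 609, 531, 492 and 539 CPM in tau IP and 362, 421 and 409 CPM in EYFP IP. Every IP library was above every pre-IP library, and the log2 fold change was 0.66 ± 0.11, adjusted p = 0.000579 by edgeR's quasi-likelihood test. Ndufa13 (GRIM-19), which spans the membrane, rose by 0.69 ± 0.12 and Ndufb7, on the intermembrane-space side, by 0.70 ± 0.13 on the same scale, with adjusted p = 0.000792 and 0.000925. The catalytic Ndufs1 also rose (0.50 ± 0.12, adjusted p = 0.00503), while Ndufv1 (0.27 ± 0.11) did not pass. The log2 ratio of IP to pre-IP of Ndufs1 was 0.47, 0.92 and 0.66 in EYFP animals H, I and K, and -0.05, 0.01, 0.76 and 0.42 in tau animals B, C, L and M.

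Sdhb was the gene of complex II that rose (0.39 ± 0.12, adjusted p = 0.0183 by edgeR), and it did not pass without animal C (adjusted p = 0.0601). Sdha read 928, 944, 791 and 894 CPM in tau pre-IP and 919, 859.9 and 984 CPM in EYFP pre-IP, and its log2 fold change in IP was -0.13 ± 0.09 (adjusted p = 0.281). Sdhc (-0.05 ± 0.09) and Sdhd (0.09 ± 0.10) did not pass either. In complex III, Uqcr11 read 666, 527, 515 and 407 CPM in tau pre-IP and 440.3, 526 and 427 CPM in EYFP pre-IP, and rose in IP by 0.71 ± 0.15 on the log2 scale (adjusted p = 0.00215 by edgeR). Uqcrq, a small ubiquinone-binding subunit, rose by 0.68 ± 0.15 and the Rieske protein gene Uqcrfs1 by 0.47 ± 0.12, with adjusted p = 0.00249 and 0.00628.

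Of the complex IV genes, Cox6c, a small membrane subunit, read 832, 765, 809 and 715 CPM in tau pre-IP and 624, 827 and 657 CPM in EYFP pre-IP, and 1863, 1244, 1160.2 and 1368 CPM in tau IP and 851, 1015 and 1064 CPM in EYFP IP. It rose by 0.75 ± 0.15 on the log2 scale (adjusted p = 0.00137 by edgeR), and no IP library was below a pre-IP library. Cox7c and Cox5b, small subunits of the same complex, rose by 0.60 ± 0.13 and 0.44 ± 0.10, and Cox4i1, the largest nuclear subunit, by 0.43 ± 0.10. The 2 members of complex IV below 0 were Cox4i2 (-0.31 ± 0.24) and Cox6b2 (-0.05 ± 0.18), and neither passed. In complex V, Atp5me, a small membrane subunit whose promoter is shown above, read 231, 205, 206 and 169 CPM in tau pre-IP and 159.8, 216 and 158 CPM in EYFP pre-IP, and 602, 395, 340.1 and 324 CPM in tau IP and 244, 267 and 281 CPM in EYFP IP. Its log2 fold change was 0.90 ± 0.17 (adjusted p = 0.00121). Atp5pb, of the stator stalk, rose by 0.47 ± 0.09 and Atp5if1 by 0.87 ± 0.19. The catalytic Atp5f1b, at 2919, 3006, 2889.9 and 3282 CPM in tau pre-IP and 2449, 2713 and 3289 CPM in EYFP pre-IP, did not pass (0.07 ± 0.10, adjusted p = 0.621 by edgeR).

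The 2 treatments were also fitted alone, with 3 EYFP and 4 tau animals, so their counts of calls rest on unequal numbers. In the EYFP animals alone, 1 member was called higher in IP, Ndufs1, against 3.96% of all genes, with a member median of 0.32 on the log2 scale and 85 of 88 above 0. In the tau animals alone 55 were called, against 10.4%, with a median of 0.62. Per animal, the member median of log2 IP over pre-IP was 0.66 in B, 0.59 in C, 0.36 in L and 0.62 in M, and 0.42 in H, 0.14 in I and 0.42 in K. The IP of animal I had an RNA integrity of 4.2. Over all genes tested the same median was -0.37 in B, -0.12 in C, -0.04 in L and 0.04 in M. In the EYFP animals it was -0.07 in H, 0.02 in I and 0.06 in K. The member median of L, of tau, was below those of H and K of EYFP. These ratios were not scaled against all genes, and the order of L and K depends on that background. The interaction of treatment and fraction, which tests the difference itself, called 0 of 88 members at adjusted p under 0.05 by edgeR, against 0% of 20495 genes, with a lowest adjusted p of 0.82. At unadjusted p under 0.05, 8 were on the higher side, against 4.03% of all genes, and 0 on the lower, against 1.94%, and the median was 0.35 against -0.05. With the animal as a block these counts were 24 and 1, against 4.3% and 4.21%. The 8 became 0 without animal C or without animal I, 4 without B and 19 without L. Without animal K, 2 were on the higher and 6 on the lower side, and with libraries scaled by their totals 2 and 5.

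By the naming rule, the interaction values of Ndufc1 (0.82 ± 0.34 on the log2 scale), Uqcr10 (0.56 ± 0.25), Cox8a (0.53 ± 0.25) and Atp5if1 (0.73 ± 0.33) were the leading ones above 0 in complexes I, III, IV and V. Below 0, Uqcrc2 (-0.34 ± 0.21), Cox6b2 (-0.36 ± 0.36) and Atp5f1a (-0.48 ± 0.31) led in complexes III, IV and V. Those above 0 are small subunits, and Uqcrc2 and Atp5f1a are large ones. Tau IP against EYFP IP and the interaction share the IP libraries, so these values are not independent of those above.

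In the homogenate, tau pre-IP against EYFP pre-IP, 0 of 88 members changed at adjusted p under 0.05 by edgeR, against 0% of 19197 genes, and the lowest adjusted p was 1.00. At unadjusted p under 0.05 the counts were 0 higher and 0 lower, against 0.578% and 2.26% of all genes, by the Wald test of DESeq2 0 were past it as well, and by voom 2 were on the higher side. Without animal I the higher count was 8 and without animal K it was 4. The groups overlapped for all 88, where 1.33% of all genes were higher without overlap. Fold changes were nevertheless above 0 for 84 of 88, with a median of 0.16 on the log2 scale against -0.00 over all genes. That median was 0.06 without animal H, 0.26 without animal I and 0.11 without animal B. Atp5po, the stator subunit OSCP, read 190.4, 163, 156 and 145 CPM in tau pre-IP and 115, 154 and 147 CPM in EYFP pre-IP (0.24 ± 0.15). The other genes the rule named were Ndufs8 (0.24 ± 0.15), Uqcrfs1 (0.22 ± 0.15) and Cox7b (0.20 ± 0.15) on the higher side, and Cox8b (-0.06 ± 0.18) and Ndufs6b (-0.24 ± 0.54) on the lower.

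Fold changes of members varied with coding length, with exceptions. Cox8b, Cox7b2, Cox6a2, Cox6b2 and Cox4i2, of 210, 246, 291, 312 and 516 coding bases, were below 0 in tau IP against EYFP IP. Coding sequences of the tested members had a median of 405 bases in GENCODE M21, against 1368 bases over all genes tested. In tau IP against EYFP IP the median log2 fold change of members was 0.72 for coding sequences up to 300 bases (24 genes), 0.49 from there to 600 (40 genes), 0.17 to 1200 (11 genes) and -0.18 above 1200 (9 genes). All genes tested followed the same order, with medians of 0.47, 0.32, 0.03 and -0.22. At unadjusted p under 0.05, 46.3, 32.4, 9.18 and 2.10% of all genes in these classes were higher. Of the members in the same classes, 83.3, 75, 27.3 and 11.1% were higher. Of the 9 members above 1200 bases, Ndufv3 alone had a fold change above 0, reading 596, 466, 378 and 289 CPM in tau IP and 275, 245 and 255 CPM in EYFP IP (0.87 ± 0.26). Ndufv3 encodes an accessory subunit of complex I, and its length here is that of its longest annotated coding sequence. For IP over pre-IP the members' medians in the same classes were 0.62, 0.50, 0.32 and 0.27, against 0.38, 0.21, 0.02 and -0.13 for all genes. The 2 longer classes hold 11 and 9 members and are thinly filled. Spearman's rho of the log2 fold change with coding length was -0.65 over 84 members and -0.39 over 15299 genes in tau IP against EYFP IP, and -0.60 and -0.19 (15081 genes) in IP against pre-IP. With the GC percent of the transcript, rho was -0.01 over members and -0.05 over all genes in tau IP against EYFP IP. In IP against pre-IP it was -0.07 over members and -0.39 over all genes. These are correlations across genes of the same libraries, and genes are not independent replicates. In tau pre-IP against EYFP pre-IP, rho with coding length was -0.16 over members and -0.26 over 15245 genes. The class medians there were 0.164, 0.158, 0.148 and 0.145 for members and 0.090, 0.068, 0.024 and -0.040 for all genes. Between the homogenates an order by length was thus present over all genes, while the members' medians were nearly flat.

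**Figure D3:**
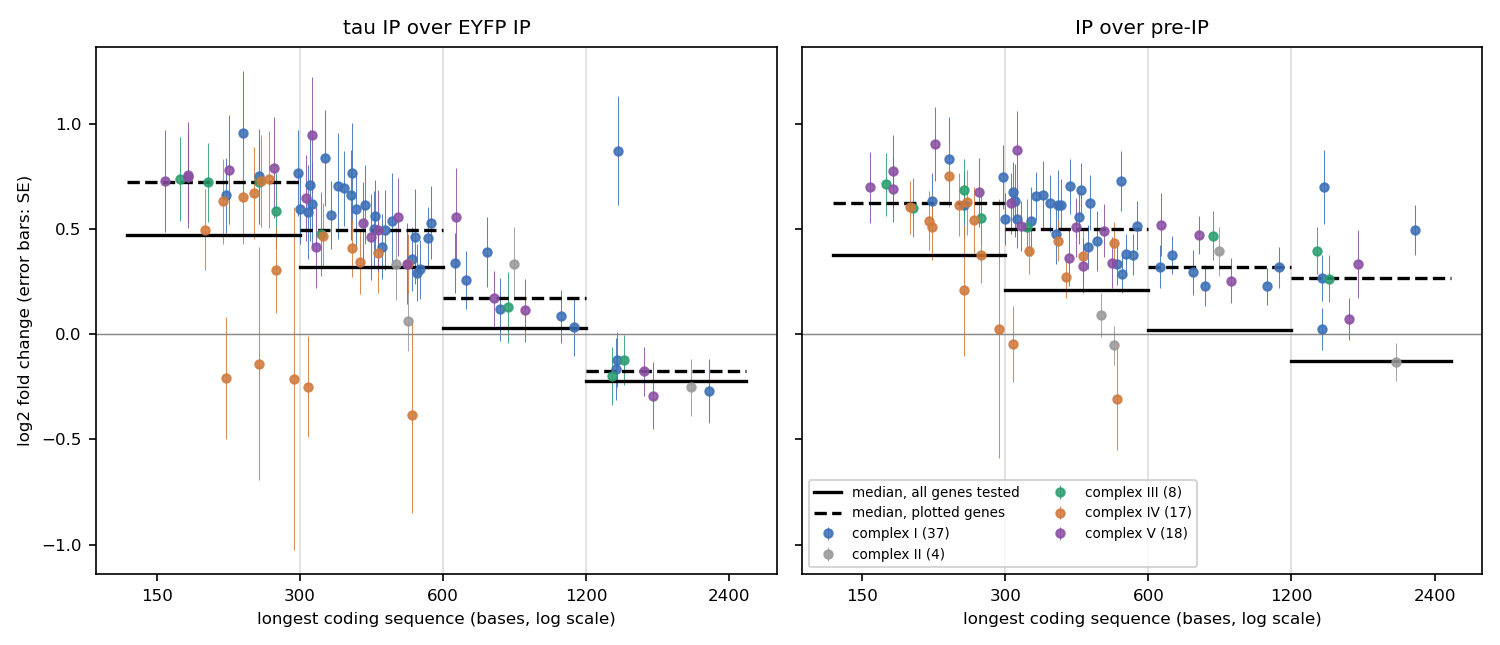
Log2 fold change (edgeR, bars are standard errors) of the 84 tested members with a coding sequence against the length of the longest coding sequence (log scale), for tau IP over EYFP IP (left) and IP over pre-IP (right), coloured by complex; dashed lines are member medians and solid lines medians of all genes tested in 4 length classes. Member medians fall from 0.72 to -0.18 on the left and from 0.62 to 0.27 on the right.

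The order held inside complexes I, III and V. In complex I, 27 members of up to 600 coding bases had a median of 0.59 in tau IP against EYFP IP and 10 longer ones had 0.10. In complex III the medians were 0.72 (5 genes) and -0.12 (3 genes), and in complex V 0.65 (13 genes) and 0.11 (5 genes). All 17 complex IV genes with a coding sequence were of 600 bases or fewer, and 2 of the 4 complex II genes were longer.

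When the trend of each library with coding length was removed, a step chosen after seeing the data, members moved less. In tau IP against EYFP IP, 18 of 84 members were higher at unadjusted p under 0.05, against 6.57% of all genes, and 0 were past adjusted p under 0.05. The median was 0.32 on the log2 scale against 0.08 over all genes. Large catalytic subunits with fold changes below 0 moved to values near 0 or above: Ndufs1 to 0.03, Ndufv1 to 0.08, Sdha to 0.02, Uqcrc1 to 0.09 and Atp5f1b to 0.05. Between IP and pre-IP, 44 of 84 members were called higher at adjusted p under 0.05 by edgeR, against 19.3% of all genes, with a median of 0.29 against 0.03. Of these 44, 40 were among the 68. By complex the calls were 27 of 37, 1 of 4, 4 of 8, 3 of 17 and 9 of 18, so the largest drop was in complex IV, from 13 to 3. Uqcr11 and Cox7c no longer passed (adjusted p = 0.0671 and 0.196), while Ndufv1, Uqcrc1 and Atp5f1a then passed (adjusted p = 0.0131, 0.0186 and 0.0303). The cause of the relation between fold change and coding length was not tested.

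**Figure D4:**
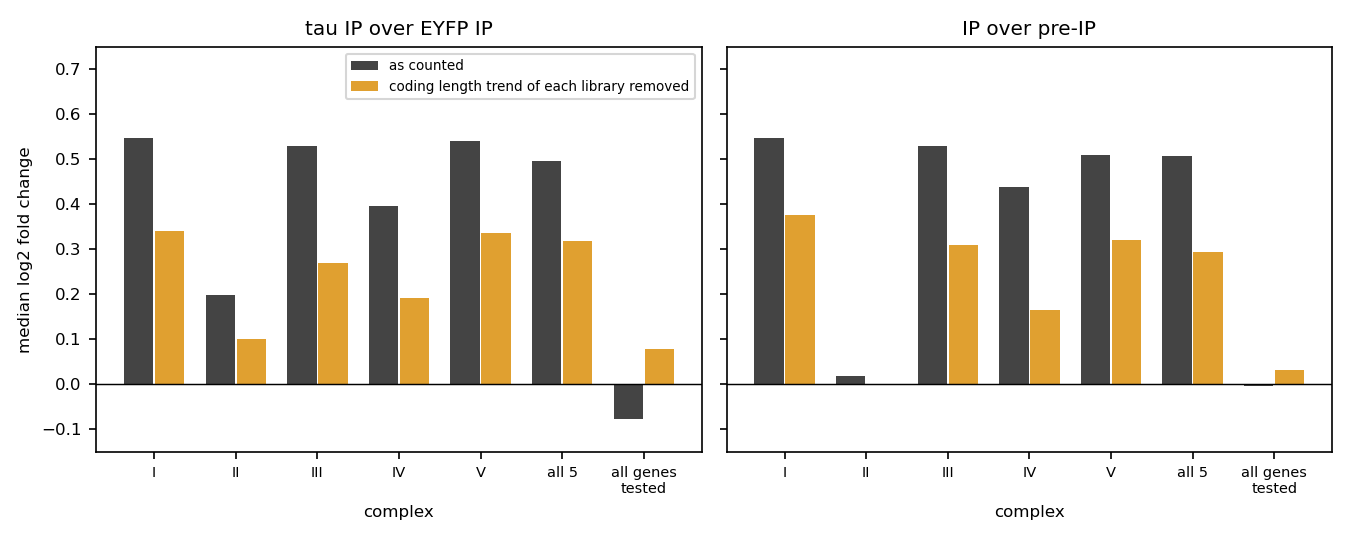
Median log2 fold change of the tested members of each complex, of all members and of all genes tested, as counted (dark bars) and after the coding-length trend of each library was removed (orange bars), for tau IP over EYFP IP (left) and IP over pre-IP (right). The member median falls from 0.50 to 0.32 on the left and from 0.51 to 0.29 on the right and stays above that of all genes.

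Several complex IV and V subunits have tissue isoforms, and levels are compared here per kilobase of merged exons (CPM per kb). In every library the widely expressed Cox4i1 was above Cox4i2, the isoform known from lung, by 216 to 1588 times (median 272 over 14 libraries). Cox8a was above Cox8b, known from muscle, by 85.1 to 361 times, Cox6b1 above the testis isoform Cox6b2 by 134 to 599 times, and Cox7b above Cox7b2 by 192 to 1210.1 times. Cox7a2 exceeded the muscle isoform Cox7a1 by 24.3 to 51.8 times and Cox7a2l, a factor of supercomplex assembly, by 3.74 to 7.85 times. The size of these ratios depends on the length used: per base of the longest-coding transcript they were 414 to 3048 times for Cox4i1 over Cox4i2 and 54.2 to 242 times for Cox6b1 over Cox6b2. The alternative isoforms of the widest ratios were at a few CPM, and Cox4i2 read 0.747, 2.76, 2.64 and 3.33 CPM in tau IP and 4.14, 2.4 and 3.26 CPM in EYFP IP.

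Cox6a2, the isoform known from heart and muscle, differed between animals across both treatments. It read 7.14, 15.5, 10.2 and 1.87 CPM in tau IP and 16.2, 15.6 and 0.988 CPM in EYFP IP, and 13.4, 14.7, 10.6 and 1.58 CPM in tau pre-IP and 9.01, 18.3 and 1.09 CPM in EYFP pre-IP. Animals K (EYFP) and M (tau) were low in both fractions, between 0.988 and 1.87 CPM, and the other 5 animals lay between 7.14 and 18.3 CPM. Its log2 fold changes of -0.21 ± 0.81 in tau IP against EYFP IP and 0.02 ± 0.62 in IP against pre-IP had the largest standard errors of the members of complex IV. Cox6a1, the widely expressed isoform, did not follow it, at 1795, 1616, 1470.0 and 1513 CPM in tau IP and 1349, 1179 and 1230.1 CPM in EYFP IP.

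**Figure D5:**
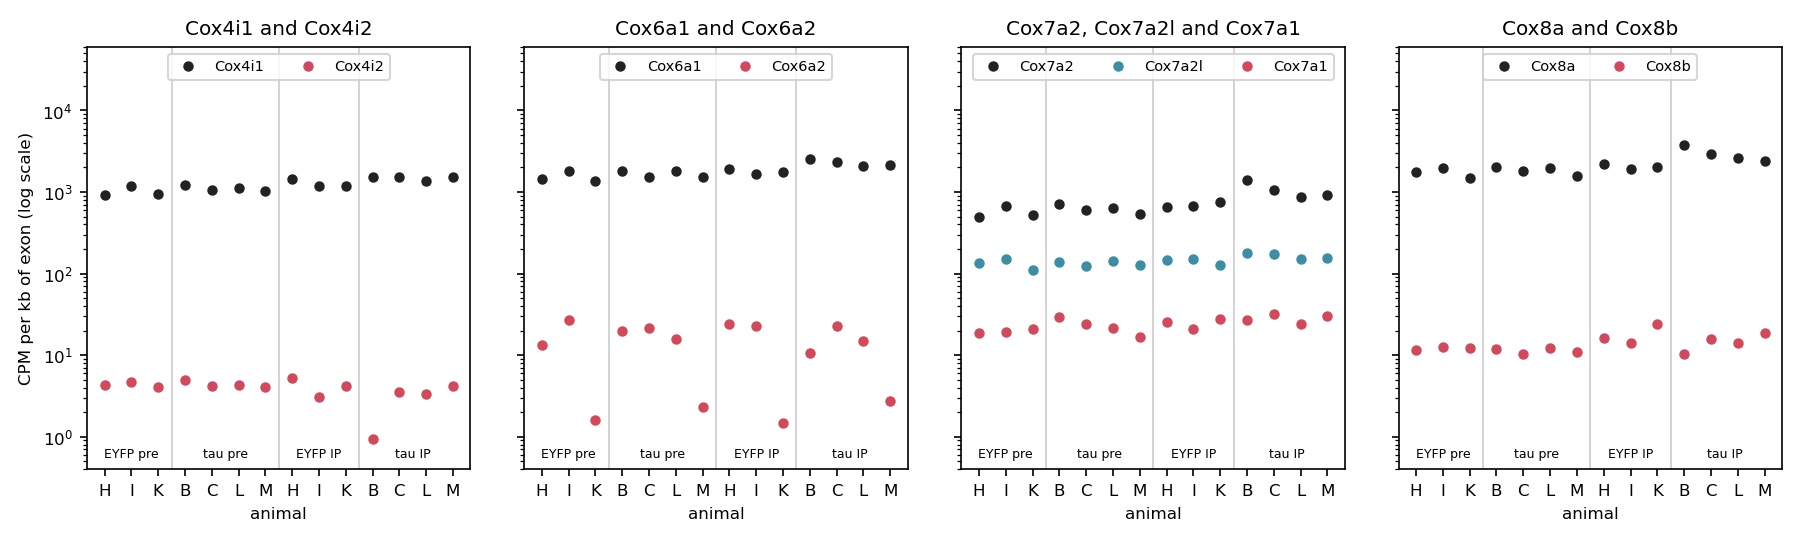
CPM per kb of exon (log scale) of 4 sets of complex IV isoforms in each of the 14 libraries, ordered by group and animal; points are libraries. Cox6a2 is low in animals K and M in both fractions, and Cox4i1, Cox6a1, Cox7a2 and Cox8a are above their alternative isoforms in every library.

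The 3 genes for the c subunit of the ATP synthase ring encode the same mature protein. Per kilobase of merged exons Atp5mc3 exceeded Atp5mc1 by 2.75 to 4.22 times, but per base of the longest-coding transcript by 1.02 to 1.56 times, so their order is close on that scale. Atp5mc1 exceeded Atp5mc2 by 2.04 to 2.48 times per merged exon length and by 4.42 to 5.38 times per transcript length. In tau IP against EYFP IP the 3 had log2 fold changes of 0.53 ± 0.20, 0.49 ± 0.19 and 0.46 ± 0.20, and in IP against pre-IP Atp5mc3 was called (0.51 ± 0.14, adjusted p = 0.0115 by edgeR) and the other two were not.

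Near-identical copies were at a few CPM or less. Ndufb4c read 0.717 to 2.95 CPM, Cox6c2 0.702 to 3.10 CPM and Ndufs6b 0.0628 to 0.730 CPM. GENCODE lists Ndufb4c, Cox6c2 and Ndufs6b as processed pseudogenes, and RefSeq lists Cox6c2 and Ndufs6b as pseudogenes. Reads of Ndufb4, Cox6c and Ndufs6 may be placed on these copies, so these values are uncertain. The call of Cox6c2 in IP against pre-IP (0.89 ± 0.29, adjusted p = 0.0255 by edgeR) rests on such counts.

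Other genes of the pathway were read from lists chosen with earlier results known. Their counts stand beside the shares over all genes tested, 7.93% higher and 4.06% lower at unadjusted p under 0.05 in tau IP against EYFP IP, and 16.3% higher and 14.7% lower at adjusted p under 0.05 in IP against pre-IP. The medians over all genes were -0.08 and -0.00. Of the 13 mitochondrially encoded subunits 11 were tested, and 0 passed an unadjusted p of 0.05 in tau IP against EYFP IP, with a median of -0.47 on the log2 scale. Their sum was 1853 to 7894 CPM in tau IP, lowest in B, and 6619 to 9113 CPM in EYFP IP. From pre-IP to IP 4 of the 11 rose, mt-Nd2, mt-Nd4, mt-Nd5 and mt-Nd6, with log2 fold changes of 0.70, 0.85, 0.88 and 1.47, against 16.3% of all genes tested. The libraries were made from polyadenylated RNA, which limits what these counts say of mitochondrial transcripts.

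Assembly factors of complex I, 15 genes that help to build it and are not part of it, had 2 higher (Ndufaf3 and Ndufaf8) and 1 lower (Acad9) at unadjusted p under 0.05 in tau IP against EYFP IP, and 8 rose and 1 fell in IP against pre-IP. For complexes II to V, 14 of 32 tested factors were higher at unadjusted p under 0.05 in tau IP, against 7.93% of all genes, among them Cox16 (1.13 ± 0.31), Cox19 (0.96 ± 0.29) and Coa3 (0.87 ± 0.25), small factors of cytochrome c oxidase assembly. Of these 32, 13 rose and 3 fell in IP against pre-IP, against 16.3% and 14.7% of all genes. Of 14 electron carrier genes, 7 had fold changes above 0 and 7 below in tau IP against EYFP IP, with a median of -0.02. At unadjusted p under 0.05, 3 were higher and 0 lower. The 3 were Cycs (0.51 ± 0.19), which encodes cytochrome c, Etfb (0.40 ± 0.17) and Coq7 (0.39 ± 0.16). In IP against pre-IP 5 electron carrier genes rose and 1 fell. Cyc1, the cytochrome c1 subunit of complex III that the symbol patterns do not reach, read 0.05 ± 0.13 in tau IP against EYFP IP.

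The lists of the tricarboxylic acid cycle, glycolysis and regulators of mitochondrial biogenesis had medians below 0 in tau IP against EYFP IP. Of 16 tricarboxylic acid cycle genes 0 had a fold change above 0 in tau IP against EYFP IP, with a median of -0.12 against -0.08 over all genes, of which 43.4% were above 0, and 2 were lower at unadjusted p under 0.05, against 4.06%. Of 16 glycolysis genes 1 was higher and 3 lower, with a median of -0.20, and of 13 regulators of mitochondrial biogenesis 0 were higher and 2 lower, with a median of -0.28. On the tagged ribosomes relative to the homogenate, 5 cycle genes rose and 2 fell, 2 glycolysis genes rose and 1 fell, and 1 regulator rose and 5 fell, against 16.3% and 14.7% of all genes. The glycolysis shares are thus below those of all genes. The medians in IP against pre-IP were 0.11 for the cycle, 0.18 for glycolysis and -0.27 for the regulators.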

How the data were processed

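RNA was measured in 14 libraries from 7 animals. Per the labels' protocols, polyadenylated RNA was the template and the SMART-Seq v4 and Nextera XT kits were used. The authors deposited whole-number counts per gene, not normalized, and a sheet with RNA concentration, raw reads and RIN, a score of RNA integrity, per the file headers. FastQC, Trim Galore, STAR, featureCounts and the builds GRCm38 and mm10 are named in the submitters' processing notes. Versions and the use of strand and of multiply mapped reads are not given in the sources used here, so overlapping and near-identical genes are uncertain. Merged exon lengths came from the deposited gene table. Coding lengths and transcript GC came from GENCODE M21, whose gene positions equalled the table's for 50973 entries and differed for 0.

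Members, lists and tests were chosen with earlier results of these data known. Genes kept by filterByExpr were scaled by TMM and tested over the whole table with edgeR 4.0.16 (quasi-likelihood F test, R 4.3.3) and Benjamini-Hochberg adjustment at 0.05. Tau was compared with EYFP within each fraction, IP with pre-IP in a model with both treatment and fraction (14 libraries), and the interaction of the 2 factors in the same libraries. CPM are counts per 1000000 of the library total, and per-animal log2 ratios used a prior count of 0.5. Standard errors (SE) are log2 fold changes divided by the square root of F. Scripts were tested on simulated counts. Nothing in the labels says how the animals relate by litter or day, so p-values measure the spread between these samples. Counts and the floor of 3 counts cover counting error only, at 41843489 to 65664551 counts per library.

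The animal letter pairs the fractions, since both come from the same animal, and deviations from group means correlated at 0.147 to 0.359 within animals. Alternatives were DESeq2 1.42.0 (Wald test, and its size factors in edgeR), voom with quality weights in limma 3.58.1, library totals, no filter, a mean of at least 50 counts, sex or library-number range as covariate, all 14 libraries in 1 fit, the animal as block, each treatment alone, and leaving out each animal. Removal of the coding-length trend (natural spline, 4 degrees of freedom, as an offset) was added after seeing the data.

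Named genes were, in each complex, the 3 members (complex III 2, complex II all 4) with the smallest p in each direction for tau IP against EYFP IP and IP against pre-IP, 1 for the other comparisons, and the isoform families and catalytic subunits. Ndufc1 in tau IP, Ndufv3, Ndufb4c, Cox6c2, Ndufs6b and genes given by name in counts were chosen after their values were seen. The values of 1 member are not reported here.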

Additional observations from a re-analysis of the deposited data

Results flagged for a closer look

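In 5 of 186 groups of 4 libraries examined, 1 library stood far from the other three, and chance flags about 1 in 20 groups. All 5 are animal B. In tau IP, B was the highest library for Ndufs4 (368 CPM, others 241 to 255), Atp5mk (1462 CPM, others 816 to 905) and the near-identical copy Ndufb4c (2.954 CPM). In tau pre-IP, B was the highest for Ndufs3 (217.8 CPM, others 197 to 199.7) and Ndufs8 (505.9 CPM, others 389 to 406).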

How the results depend on the processing

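Over the other settings the count of members called stayed at 0 in tau IP against EYFP IP, except 8 by the Wald test of DESeq2, and at 0 in tau pre-IP against EYFP pre-IP and in the interaction. In IP against pre-IP it was 52 to 68 when 1 animal was left out, 1 in EYFP animals alone and 44 with the coding-length trend removed. The median log2 fold change of members was 0.35 to 0.57 without 1 animal in tau IP against EYFP IP and 0.32 with the trend removed. In IP against pre-IP it was 0.43 to 0.57 without 1 animal, 0.32 in EYFP animals alone and 0.29 with the trend removed. In the interaction it was 0.19 to 0.44 without 1 animal and 0.18 by voom. The replicate block gave 69 calls in IP against pre-IP and changed the calls of 3 members (Cox6c2 lost, 2 added). Trend removal tests fewer genes, and the cause of the other shifts was not tested.

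Of the log2 fold changes of named genes, those that changed sign are these. In tau IP against EYFP IP, trend removal gave Sdha 0.020, Sdhc -0.074, Ndufs1 0.031, Ndufv1 0.079, Uqcrc1 0.092 and Atp5f1b 0.055, and library totals gave Sdhc -0.038. Without 1 animal, Sdhc ran from -0.032 (without H) to 0.11, Uqcrfs1 from -0.0062 (without H) to 0.19 and Cox8b from -0.38 to 0.061 (without K). In tau pre-IP against EYFP pre-IP, Ndufs6b ran from -0.46 to 0.042 (without B). In IP against pre-IP, trend removal gave Sdha 0.025 and Sdhd -0.030, EYFP animals alone gave Sdhc 0.0023, Sdhd -0.053 and Cox6b2 0.16, and tau animals alone gave Atp5f1b -0.080. Without 1 animal, Cox6b2 ran from -0.11 to 0.11 (without B) and Atp5f1b from -0.012 (without H) to 0.12. Library totals moved the median of all genes in tau IP against EYFP IP from -0.08 to -0.18 and the members higher and lower at unadjusted p under 0.05 from 55 and 0 to 46 and 5.

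The comparisons of treatments rest on 4 against 3 animals, whose IPs differed in marker levels and RNA concentration. Genes near the floor (Cox7b2, Ndufs6b, Cox4i2) are limited by counts.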
